A study of Mus musculus with 4 samples.

Results

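The genes described here are 38 genes of the ATF4 programme, of the 25814 genes listed for cultured tail keratinocytes (KCs). They are transcription factors and regulators of the integrated stress response, enzymes that make serine, glycine, asparagine, proline and one-carbon units, and amino acid transporters. The members were taken by gene symbol from a written list, and all 38 were found. The list was drawn up because 3 of its genes, Atf5, Aldh1l2 and Slc7a3, had been noted as lower in the libraries labelled Nfat5-/-. The values of these 3 are therefore given as a description, without a test. The same contrast prompted the whole list, so counts over its members describe these libraries and support nothing further.

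RNA from untreated primary KCs of adult 129/sv mice was sequenced in 4 libraries. By their labels, 2 of these derive from wild-type animals (WT) and the other 2 from Nfat5-/- animals, which lack functional NFAT5, an osmosensitive transcription factor. The WT mice were siblings on the same 129/sv background, and the study's methods describe kidney atrophy and permanent hypernatremia in these 129sv mice. Whether both genotypes share this state is not given there. Tails were shipped on ice, and the epidermal cells were grown in serum-free medium with 0.06 mM calcium. The libraries are described as 2 independent experiments for each genotype. Depth lay between 16219445 and 23494436 gene reads per library. The reads of Nfat5 did not separate the labels, with 1.67 and 3.002 RPKM in WT against 2.02 and 2.78 RPKM in the libraries labelled Nfat5-/- (log2 fold change 0.09, SE 0.26, adjusted p = 0.913 in edgeR). RPKM are exon reads corrected for the length of the exons and for the number of reads mapped in each library. The part of the gene removed in the mutant was not examined here, so these reads do not check the genotype, and the groups are named by their labels throughout.

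ATF4 is the main transcription factor of the integrated stress response. Kinases that sense amino acid shortage, unfolded protein in the endoplasmic reticulum, heme deficiency or double-stranded RNA phosphorylate the initiation factor eIF2, which slows general translation but lets ribosomes reach the ATF4 reading frame. ATF4 then binds, as a dimer with C/EBP family proteins, to composite C/EBP-ATF response elements and switches on genes for amino acid synthesis and uptake. Since much of this control acts on translation, the RNA level of Atf4 is not a measure of ATF4 protein.

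The C/EBP-ATF response element was looked for in the promoters as the letters TGATGNAA on either strand, in RefSeq windows from 250 bases before to 50 after the gene start (GRCm38.p6). A window was at hand for 31 of the 38 members, and 9 of them held the element, namely Atf3, Chac1, Trib3, Slc7a11, Asns, Nupr1, Slc1a4, Pycr1 and Vldlr. Over all 27025 genes with a window, 4.51% held it. The 7 members without a window were Aldh1l2, Slc7a3, Slc7a5, Slc1a5, Slc38a1, Cth and Eif4ebp1. The core of the NFAT5 site, TGGAAA, stood in the windows of 6 members, namely Phgdh, Ppp1r15a, Nupr1, Gpt2, Shmt2 and Atf4, and in those of 23.9% of all genes. Stretches of 6 members with the C/EBP-ATF element are printed since they belong to the members on which the values below turn, namely enzymes, transporters and Trib3 with lower levels in the libraries labelled Nfat5-/-, and Nupr1 with a higher one. They read 5′ to 3′ along the strand of the gene, and capitals mark the element. Pycr1 is shown at chr11:120643818-120643877 on the minus strand, Slc7a11 at chr3:50443627-50443705 on the minus strand and Asns at chr6:7693214-7693243 on the minus strand. Trib3 is shown at chr2:152344028-152344057, Slc1a4 at chr11:20332699-20332728 and Nupr1 at chr7:126625562-126625591, also on the minus strand. By the GENCODE M21 annotation of GRCm38, those of Pycr1 and Slc7a11 lie upstream of the gene, and the other 4 touch an untranslated region of a transcript.
Pycr1: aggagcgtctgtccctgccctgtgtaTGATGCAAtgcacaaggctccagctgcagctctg
Slc7a11: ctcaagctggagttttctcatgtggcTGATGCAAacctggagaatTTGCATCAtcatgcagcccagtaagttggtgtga
Asns: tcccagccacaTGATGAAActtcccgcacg
Trib3: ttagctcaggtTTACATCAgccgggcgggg
Slc1a4: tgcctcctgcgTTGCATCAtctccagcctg
Nupr1: aaagggccagaTTGCATCAgacagggcttg
Slc7a11, the cystine importer, carried 2 copies in opposite orientation, starting 66 and 47 bases before the gene start. The copy of Asns began 23 bases and that of Pycr1 103 bases before the start, while the copy of Trib3 began 14 bases after it. The median log2 fold change was -0.60 over the 9 members with the element (range -1.002 to 0.54) and -0.51 over the 21 tested members whose window lacked it. For the NFAT5 letters the medians were -0.53 with and -0.54 without. A match of letters is not a bound site.

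Most members were lower in the libraries labelled Nfat5-/-. Of the 38, 37 had enough reads to be tested, and 34 of these had a log2 fold change (Nfat5-/- minus WT) below 0. The median over the 37 was -0.55, against -0.01 over all 12614 genes tested, and it was -0.50 over the 34 that had not prompted the list. Without WT replicate 1 the median over the 37 was -0.32, and without WT replicate 2 it was -0.71. Only Nupr1, Ddit4 and Slc38a1 lay above 0. In RPKM, 32 members had both libraries labelled Nfat5-/- below both WT libraries, 2 had both above, and 3 overlapped. Such separation was common in these 4 libraries, with 46.5% of all genes tested (21.6% with the libraries labelled Nfat5-/- higher and 25.0% with them lower). Added up, the RPKM of the 38 members came to 2404 and 1900 in the WT libraries and to 1588 and 1335 in the libraries labelled Nfat5-/-. The reads of these genes took 0.631% and 0.502% of all gene reads in WT and 0.416% and 0.350% in the others. In bulk RNA of this kind, fewer cells with high levels and less RNA per cell cannot be told apart.

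Few single members passed the test. Among the 34 tested members that had not prompted the list, Psph and Pycr1 fell at an adjusted p under 0.05 in edgeR's quasi-likelihood test, and 0 rose. Of all genes tested, 1.27% passed (0.943% higher and 0.325% lower). Without adjustment 24 of the 34 had a p under 0.05, as had 1846 of all 12614 genes. Both calls were lost when either library labelled Nfat5-/- was left out, where 0 members and 0.24% (without replicate 1) or 0.122% (without replicate 2) of all genes passed. In such a fit the spread comes from the complete group alone, and the remaining library is assumed to vary like it. The changes themselves stayed of similar size, -0.96 and -0.80 for Psph and -0.79 and -0.72 for Pycr1. Without WT replicate 1, Psph, Slc6a9 and, as a rise, Nupr1 passed, beside 2.05% of all genes, and without WT replicate 2, 18 members passed, beside 3.7% of all genes. The size of the changes depended most on WT replicate 1. Leaving it out moved the log2 fold change of 22 of the 37 members by over 1.5 times, against 9 without WT replicate 2 and 5 without each library labelled Nfat5-/-. The 22 were Atf4, Ddit3, Trib3, Nupr1, Cebpg, all regulators but Ddit4, Asns, Phgdh, Shmt1, Mthfd1l, Aldh18a1, Gpt2 and the transporters Slc7a1, Slc7a5, Slc3a2, Slc6a9 and Slc38a1.

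**Figure D1:**
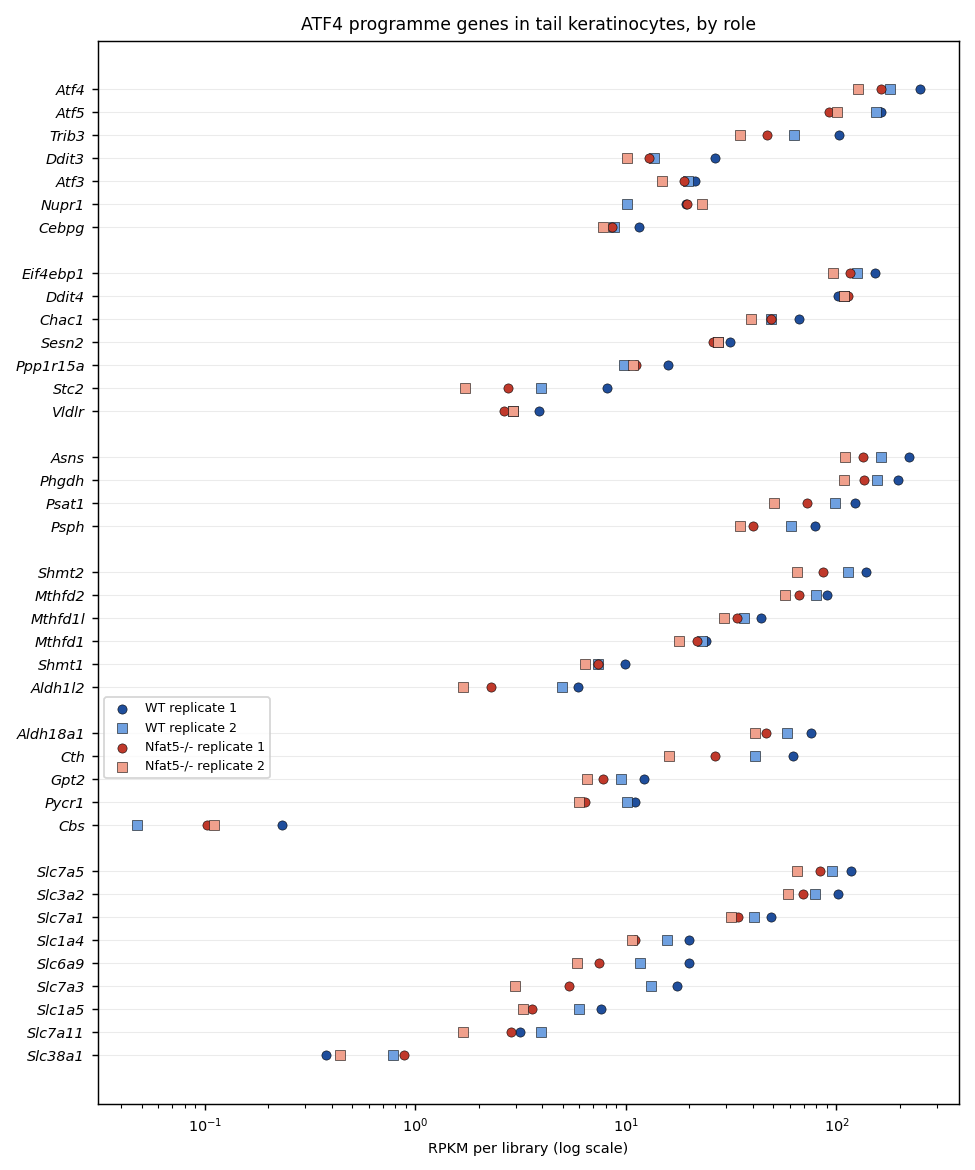
RNA level of each of the 38 members in each of the 4 libraries, in RPKM on a log scale, with members grouped by role and ordered by their level in WT replicate 1. For most genes the red points of the libraries labelled Nfat5-/- lie left of the blue WT points, while Nupr1, Ddit4, Ppp1r15a, Vldlr and Slc38a1 do not follow and Cbs is close to undetected.

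Among the transcription factors, Atf4 was the most abundant of all members in both groups, with 250 and 180 RPKM in WT against 163 and 127 RPKM in the libraries labelled Nfat5-/-. The groups did not overlap, but the log2 fold change of -0.55 (SE 0.18) missed the threshold (adjusted p = 0.234 in edgeR). It was -0.28 without WT replicate 1 and -0.77 without WT replicate 2, where it passed (adjusted p = 0.0289). Atf5, a related factor that is likewise translated under stress, had 164 and 153 RPKM in WT against 92.4 and 101 RPKM in the others. Its WT libraries lay close together and well above both others, and the change was -0.70 (SE 0.11, no test). Cebpg encodes a dimer partner of ATF4. Its RNA level was 11.5 and 8.81 RPKM in WT against 8.57 and 7.80 RPKM in the libraries labelled Nfat5-/-, a change of -0.29 (SE 0.15, adjusted p = 0.418).

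Atf3 and Ddit3 are further stress-induced factors downstream of ATF4, Ddit3 coding for CHOP, which is linked to cell death under prolonged stress. Atf3 had 21.4 and 19.8 RPKM in WT against 18.8 and 14.8 RPKM. The change of -0.31 (SE 0.13) missed the threshold (adjusted p = 0.327). It was -0.46 without the replicate 1 labelled Nfat5-/- and -0.18 without the replicate 2 of that label. For Ddit3, WT replicate 1 stood apart at 26.5 RPKM, while WT replicate 2 with 13.6 RPKM was close to the 12.8 and 10.1 RPKM of the libraries labelled Nfat5-/- (-0.70, SE 0.28, adjusted p = 0.312), and 14.5% of its gene reads lay in introns. The change of Ddit3 was -0.20 without WT replicate 1 and -1.08 without WT replicate 2 (adjusted p = 0.0137). Trib3, a pseudokinase that binds ATF4 and dampens it, had 103 and 62.6 RPKM in WT against 46.6 and 34.95 RPKM in the others, 2.03-fold lower on average. Its groups were apart, and the change of -1.002 (SE 0.24) had an adjusted p of 0.108. Trib3 was at -0.59 without WT replicate 1 and at -1.32 without WT replicate 2, where it passed (adjusted p = 0.00255). Nupr1, a small stress-induced nuclear protein, went the other way. WT replicate 1 (19.4 RPKM) and the libraries labelled Nfat5-/- (19.6 and 23.0 RPKM) were near each other, and WT replicate 2 was low at 10.1 RPKM, for a change of 0.54 (SE 0.28, adjusted p = 0.423). It was 0.15 without WT replicate 2 and 1.07 without WT replicate 1.

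Of the 7 regulators that act after ATF4, 0 passed the threshold, 2 overlapped between the groups, and the median change was -0.28. Among all genes tested, 1.27% passed and 46.5% had groups that did not overlap. Stc2, which codes for a secreted glycoprotein induced by stress, had 8.14 and 3.94 RPKM in WT against 2.74 and 1.73 RPKM in the libraries labelled Nfat5-/-. Both WT values exceeded both others, but they also differed widely from each other (-1.36, SE 0.35, adjusted p = 0.140). Without WT replicate 1 the change was -0.74, and without WT replicate 2 it was -1.80 (adjusted p = 0.0033). Eif4ebp1, the translation repressor 4E-BP1, had 153 and 125 RPKM against 116 and 96.2 RPKM (-0.37, SE 0.14, adjusted p = 0.291). Chac1, an enzyme that degrades glutathione, had 66.5 and 49.0 RPKM against 48.8 and 39.1 RPKM. Here WT replicate 2 and the replicate 1 labelled Nfat5-/- were almost equal (-0.37, SE 0.17, adjusted p = 0.372).

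Ddit4, an inhibitor of mTORC1 signalling, was nearly level, with 102 and 108.06 RPKM in WT against 114 and 108.10 RPKM in the others (0.10, SE 0.10, adjusted p = 0.6997). The same was seen for Sesn2, a leucine sensor that also restrains mTORC1, with 31.1 and 27.39 RPKM against 25.9 and 27.34 RPKM (-0.12, SE 0.11, adjusted p = 0.687). For both genes, WT replicate 2 and the replicate 2 labelled Nfat5-/- could hardly be told apart. Ppp1r15a, which directs a phosphatase to eIF2 and so ends the response, overlapped between the groups with 15.8 and 9.79 RPKM against 11.2 and 10.8 RPKM (-0.20, SE 0.21, adjusted p = 0.721). Vldlr, a lipoprotein receptor, overlapped too, with 3.87 and 2.913 RPKM against 2.62 and 2.919 RPKM (-0.28, SE 0.17, adjusted p = 0.514).

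All 4 genes of serine and asparagine synthesis were lower in both libraries labelled Nfat5-/-, as were 25.0% of all genes tested. Their median change was -0.73. Psph, the phosphatase of the last step to serine, is encoded on chromosome 5 (129765558 to 129787449, minus strand, GRCm38). Its level was 78.7 and 60.7 RPKM in WT against 39.99 and 34.9 RPKM in the libraries labelled Nfat5-/-, or 69.7 ± 12.7 against 37.5 ± 3.56 RPKM (mean ± SD, n = 2). It fell by 0.88 on the log2 scale (SE 0.15, adjusted p = 0.0416 in edgeR). Psat1, the transaminase one step earlier, had 122 and 98.3 RPKM against 72.6 and 50.5 RPKM (-0.82, SE 0.18, adjusted p = 0.0901). Its groups were apart as well, but the libraries labelled Nfat5-/- differed more from each other. Phgdh, which starts the pathway, was the third most abundant member in WT, with 197 and 155 RPKM against 135 and 109 RPKM (-0.51, SE 0.15, adjusted p = 0.186). Only 34.0% of its exon reads were placed at a single site, and with these alone the change was -0.49 (adjusted p = 0.150). Asns, the asparagine synthetase, had 220 and 163 RPKM in WT against 134 and 109 RPKM in the others (-0.64, SE 0.16, adjusted p = 0.136).

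The one-carbon enzymes pass carbon from serine through folate, partly in mitochondria (Shmt2, Mthfd2, Mthfd1l, Aldh1l2) and partly in the cytosol (Shmt1, Mthfd1). All 6 had non-overlapping groups with lower values in the libraries labelled Nfat5-/-, as had 25.0% of all genes tested. Without Aldh1l2, which had prompted the list, this held for 5 of 5. Shmt2, which splits serine into glycine and a one-carbon unit, had 139 and 113 RPKM in WT against 86.2 and 65.0 RPKM in the others (-0.72, SE 0.16, adjusted p = 0.0880). Mthfd2, the next mitochondrial step, had 89.7 and 79.9 RPKM against 66.1 and 56.8 RPKM (-0.45, SE 0.12, adjusted p = 0.140), and Mthfd1l, which releases formate, 43.6 and 36.5 RPKM against 33.6 and 29.3 RPKM (-0.33, SE 0.12, adjusted p = 0.288). Aldh1l2, a mitochondrial dehydrogenase of formyl-folate, stood out among them as a gene of low level. It had 5.91 and 4.96 RPKM in WT against 2.30 and 1.68 RPKM in the libraries labelled Nfat5-/-, a ratio of 2.73 between the group means (-1.42, SE 0.17, no test). Both WT values were more than double the higher of the others.

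The cytosolic enzymes showed smaller differences. Shmt1 had 9.87 and 7.38 RPKM against 7.35 and 6.40 RPKM (-0.31, SE 0.17, adjusted p = 0.445), with WT replicate 2 next to the replicate 1 labelled Nfat5-/-. Mthfd1 had 23.9 and 22.9 RPKM against 21.9 and 17.9 RPKM (-0.22, SE 0.12, adjusted p = 0.448). Its change was -0.36 without the replicate 1 labelled Nfat5-/- and -0.10 without the replicate 2 of that label. In WT the mitochondrial Shmt2 exceeded Shmt1 14.6-fold in RPKM and Mthfd2 exceeded Mthfd1 3.62-fold. In the libraries labelled Nfat5-/- these ratios were 11.0 and 3.09. Whether the changes differed between the compartments was not tested.

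Pycr1, the last enzyme of proline synthesis in mitochondria, was the second member to pass the test. The gene lies on chromosome 11 (120635712 to 120643769, minus strand, GRCm38). Its level was 11.1 and 10.1 RPKM in WT against 6.40 and 6.001 RPKM in the libraries labelled Nfat5-/-, or 10.6 ± 0.653 against 6.20 ± 0.283 RPKM (mean ± SD, n = 2), so that the replicates agreed closely within each group. It fell by 0.76 on the log2 scale (SE 0.11, adjusted p = 0.0338 in edgeR). With the replicate number as a further term in edgeR, Pycr1 missed the threshold (-0.76, adjusted p = 0.0524). Without WT replicate 1 it missed the threshold as well (-0.68, adjusted p = 0.0519). Aldh18a1, which makes the precursor used by Pycr1, had 75.4 and 58.1 RPKM against 46.2 and 41.0 RPKM (-0.59, SE 0.14, adjusted p = 0.112). Gpt2, the mitochondrial alanine transaminase, had 12.1 and 9.42 RPKM against 7.78 and 6.52 RPKM (-0.58, SE 0.15, adjusted p = 0.144).

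Cth and Cbs are the enzymes of transsulfuration, by which homocysteine is turned into cysteine. Cth was well expressed, with 62.0 and 41.0 RPKM in WT against 26.4 and 15.99 RPKM in the libraries labelled Nfat5-/-, 2.43-fold lower on average. No value of one group reached the other, but the spread within each group was wide (-1.27, SE 0.26, adjusted p = 0.0766). Cbs was close to undetected, with 12, 3, 8 and 7 reads in the 4 libraries, and was not tested.

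**Figure D2:**
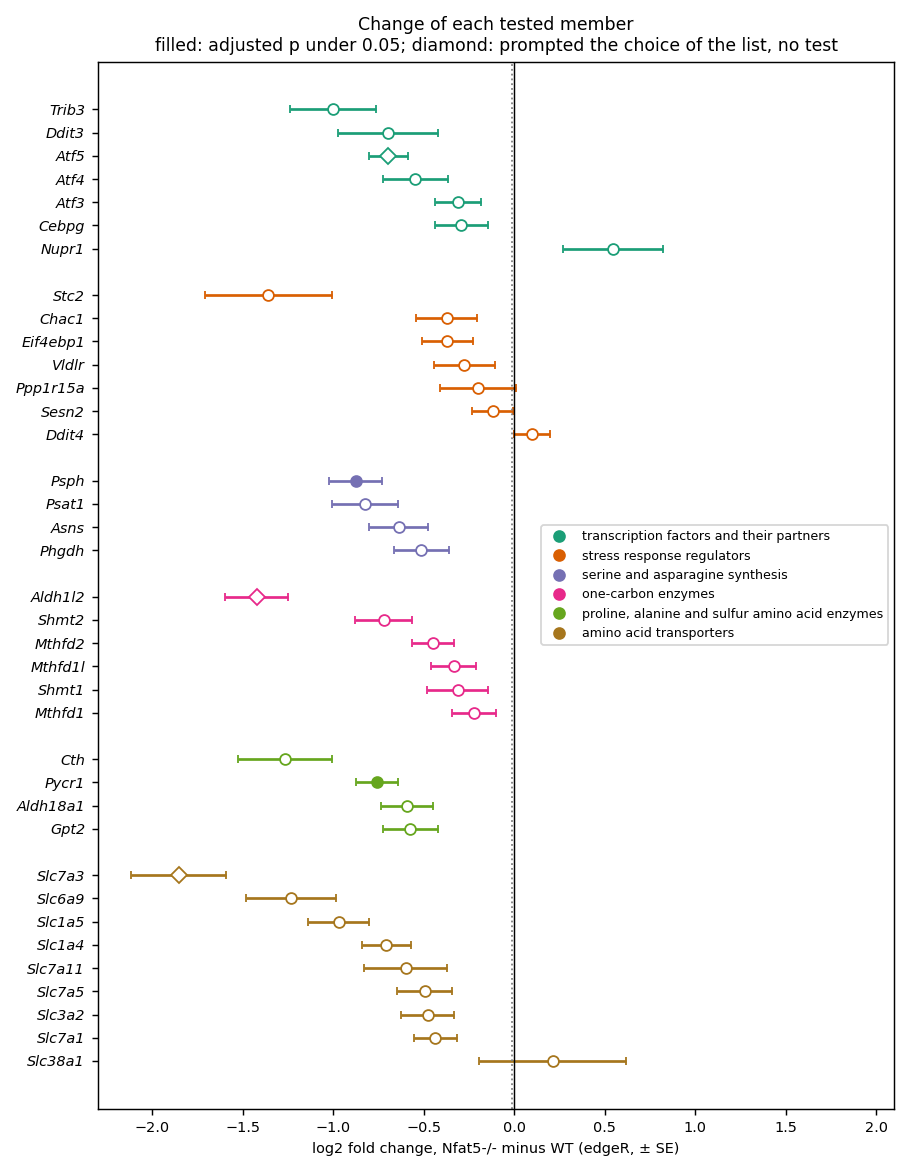
Log2 fold change (Nfat5-/- minus WT, edgeR) of the 37 tested members with its standard error as bars, grouped by role in colour. Filled circles passed an adjusted p of 0.05 (Psph and Pycr1), diamonds are the 3 genes that prompted the list and carry no test, and the dotted line is the median of all genes tested, -0.01.

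Of the 9 amino acid transporters, 8 were lower in both libraries labelled Nfat5-/-, as were 25.0% of all genes tested. Without Slc7a3, which had prompted the list, this held for 7 of 8. The cationic transporters Slc7a1 and Slc7a3 take up arginine and lysine. Slc7a3 (chromosome X) had 17.6 and 13.1 RPKM in WT against 5.34 and 2.97 RPKM in the others, from 851 and 851 reads against 377 and 165 reads. This was the lowest log2 fold change among the members, -1.85 (SE 0.26, no test). Slc7a1 was more abundant, with 49.0 and 40.6 RPKM against 33.9 and 31.6 RPKM (-0.44, SE 0.12, adjusted p = 0.161). The ratio of Slc7a1 to Slc7a3 was thus 2.92 in WT and 7.88 in the libraries labelled Nfat5-/-.

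Slc1a5, the glutamine transporter ASCT2, had 7.59 and 5.98 RPKM in WT against 3.57 and 3.24 RPKM in the others. The groups were apart and the change was -0.97 (SE 0.17), just short of the threshold (adjusted p = 0.050011). Slc1a4, its paralog ASCT1 for alanine, serine and cysteine, had 20.01 and 15.7 RPKM against 11.0 and 10.7 RPKM (-0.71, SE 0.14, adjusted p = 0.0660). Slc6a9, the glycine transporter GLYT1, had 19.98 and 11.6 RPKM against 7.42 and 5.87 RPKM. The change was -1.23 (SE 0.25, adjusted p = 0.0739). Only 26.3% of the exon reads of Slc6a9 were placed at a single site, and a fit on such reads gave -1.32 (adjusted p = 0.0431). Without WT replicate 1 the change of Slc6a9 was -0.78 (adjusted p = 0.0441), and without WT replicate 2 it was -1.58 (adjusted p = 8.6e-04).

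Slc7a5 and Slc3a2 encode the light and the heavy chain of the transporter LAT1, which brings in leucine and other large neutral amino acids. Slc7a5 had 118 and 94.9 RPKM against 84.0 and 65.2 RPKM (-0.49, SE 0.15, adjusted p = 0.207), and Slc3a2 102 and 79.2 RPKM against 69.5 and 59.0 RPKM (-0.48, SE 0.15, adjusted p = 0.202). In each library the partners had levels close to each other. Only 16.1% of the exon reads of Slc7a5 were placed at a single site, and these gave the same -0.49 (adjusted p = 0.190). Slc3a2 is also the heavy chain of the cystine importer formed with Slc7a11. Slc7a11 was far less abundant, with 3.12 and 3.95 RPKM against 2.85 and 1.69 RPKM (-0.60, SE 0.23, adjusted p = 0.301). It was the only lower transporter whose WT replicate 2 exceeded WT replicate 1. The change of Slc7a11 was -1.01 without the replicate 1 labelled Nfat5-/- and -0.29 without the replicate 2 of that label. Slc38a1, a carrier of small neutral amino acids, had 0.375 and 0.778 RPKM against 0.885 and 0.439 RPKM, and its groups overlapped (0.21, SE 0.40, adjusted p = 0.859).

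The replicates of 1 label also differed in a shared way. In 29 of the 37 tested members (78.4%) the 4 libraries took the same order, WT replicate 1 highest, then WT replicate 2, then the replicates 1 and 2 labelled Nfat5-/-, an order found in 10.6% of all genes tested. WT replicate 2 was below WT replicate 1 in 34 of the 37 members, with a median RPKM ratio of 0.785. In the same way, the replicate 2 labelled Nfat5-/- was below replicate 1 in 33 members, with a median ratio of 0.828. The step between the groups, from WT replicate 2 to the replicate 1 labelled Nfat5-/-, had a median ratio of 0.834. Over all genes tested the corresponding median ratios were 1.002, 0.973 and 0.998. The spacing between replicates of 1 label was thus as wide as that between the nearest libraries of the 2 labels.

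**Figure D3:**
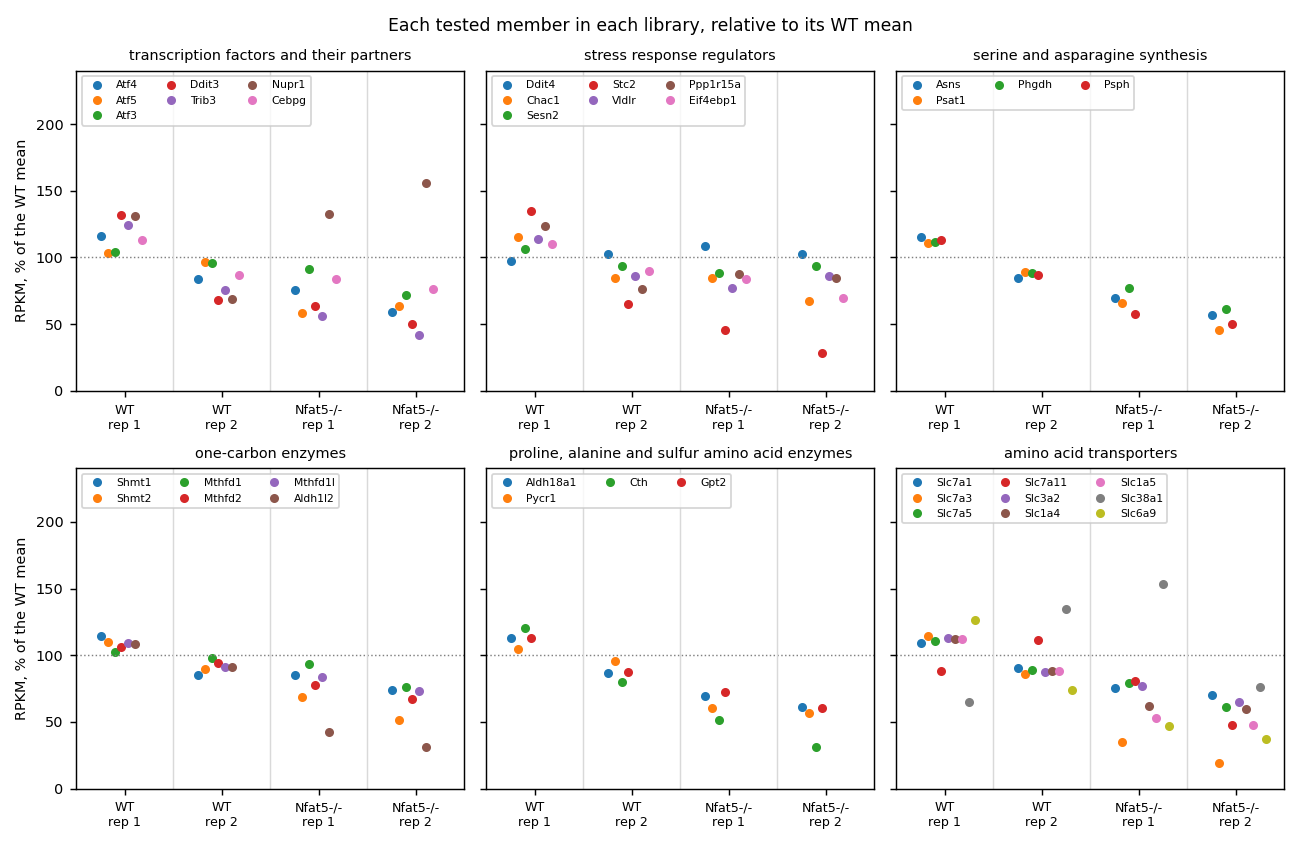
RPKM of each tested member in each library as percent of its own mean over the WT libraries, 1 panel per role, with a dotted line at the WT mean (100). In most panels the points of WT replicate 1 lie above those of WT replicate 2, and the replicate 2 labelled Nfat5-/- holds the lowest points, while 8 members do not share the order of the 4 libraries (Atf5, Nupr1, Ddit4, Sesn2, Ppp1r15a, Vldlr, Slc7a11 and Slc38a1).

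Genes next to these in the same pathways were examined in 7 lists with 153 genes, of which 140 were tested. They had a median change of -0.13, and 2 rose and 2 fell at an adjusted p under 0.05, where 1.27% of all genes passed (3.7% without WT replicate 2). The split was not stable, with 4 up and 11 down in DESeq2 and 3 up and 15 down without WT replicate 2. A list of 15 genes that act around eIF2 before ATF4 (its kinases with the helpers Gcn1l1 and Impact, its subunits, its exchange factor eIF2B and the phosphatase partner Ppp1r15b) had a median of -0.05 with 0 calls. Their ends were Eif2ak4, the kinase GCN2 that senses uncharged tRNA (-0.19, SE 0.15, adjusted p = 0.617), and the eIF2 subunit Eif2s3x (0.49, SE 0.24, adjusted p = 0.405). Eif2s3x depended on WT replicate 1, with 0.14 without it and 0.98 without WT replicate 2 (adjusted p = 0.00658).

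The 21 genes for cytosolic aminoacyl-tRNA synthetases and the tRNA exporter Xpot, many of them reported ATF4 targets, had a median of -0.21. None passed the threshold in edgeR, while 7 of the 21 had an unadjusted p under 0.05 (14.6% of all genes tested), and 18 lay below 0 (51.95% of all genes tested). Xpot had the lowest change, with 34.9 and 29.4 RPKM in WT against 23.8 and 21.4 RPKM in the libraries labelled Nfat5-/- (-0.49, SE 0.12, adjusted p = 0.123), and the glutamine enzyme Qars the highest (0.10, SE 0.10, adjusted p = 0.708). Xpot passed without WT replicate 2 (-0.61, adjusted p = 0.0381). The order of libraries seen for the members was found in 13 of the 21 genes (61.9%).

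Chaperones and sensors of the endoplasmic reticulum, 21 genes, had a median of -0.35 with 18 below 0, 0 calls and 13 unadjusted p-values under 0.05. Of all genes tested, 51.95% lay below 0 and 14.6% had an unadjusted p under 0.05. Hspa5, the chaperone BiP, had 408 and 307 RPKM in WT against 245 and 223 RPKM in the others (-0.59, SE 0.15, adjusted p = 0.121). Hspa5 was at -0.36 without WT replicate 1 and at -0.79 without WT replicate 2, where it passed (adjusted p = 0.0163). The lowest value of this list was that of Derl3, a rarely read gene of protein degradation (-1.91, SE 0.58, adjusted p = 0.200), and the highest that of the sensor kinase Ern1 (0.10, SE 0.14, adjusted p = 0.805). Derl3 was at -2.97 without the replicate 1 labelled Nfat5-/-, and Ern1 at 0.05 without WT replicate 1. In 13 of the 21 (61.9%) the libraries took the order described for the members.

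Folate and glycine enzymes outside the members (23 of 25 tested) had a median of -0.07 and 0 calls, from Ahcy (-0.35, SE 0.35, adjusted p = 0.6997) to Mthfs (0.33, SE 0.22, adjusted p = 0.565). Ahcy was at -1.08 without the replicate 1 labelled Nfat5-/- and at 0.11 without the replicate 2 of that label. Only 7.45% of the exon reads of Mthfs were placed at a single site. Amino acid transporters outside the members (15 of 23 tested) had a median of -0.16. Here Slc6a14, a broad importer of neutral and cationic amino acids, rose from 1.44 and 1.29 RPKM to 4.68 and 2.91 RPKM (1.44, SE 0.24, adjusted p = 0.0416). Slc38a4, a carrier of small neutral amino acids, fell from 2.94 and 3.18 RPKM to 1.35 and 1.63 RPKM (-1.03, SE 0.18, adjusted p = 0.0499). The groups of both genes were apart.

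Other genes of amino acid metabolism (22 of 24 tested) had a median of -0.04, and 1 of them rose past the threshold. The lowest change was that of Pck2, a mitochondrial enzyme of gluconeogenesis and a reported ATF4 target, with 51.1 and 33.2 RPKM against 21.3 and 16.9 RPKM (-1.12, SE 0.21, adjusted p = 0.0601), and Pck2 passed when WT replicate 1 (-0.77) or WT replicate 2 (-1.40) was left out. Among the other reported ATF4 targets (23 of 24 tested, median -0.16), Fam129a fell from 17.6 and 13.1 RPKM to 7.91 and 7.25 RPKM (-0.998, SE 0.15, adjusted p = 0.0351). The hormone gene Fgf21 had the lowest change of this list (-1.35, SE 0.60, adjusted p = 0.365) and the apoptosis gene Bbc3 the highest (0.44, SE 0.17, adjusted p = 0.298). Fgf21 was at -2.72 without the replicate 1 labelled Nfat5-/- and at -0.73 without the replicate 2 of that label. Without either library labelled Nfat5-/-, 0 of these 140 genes passed.

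**Figure D4:**
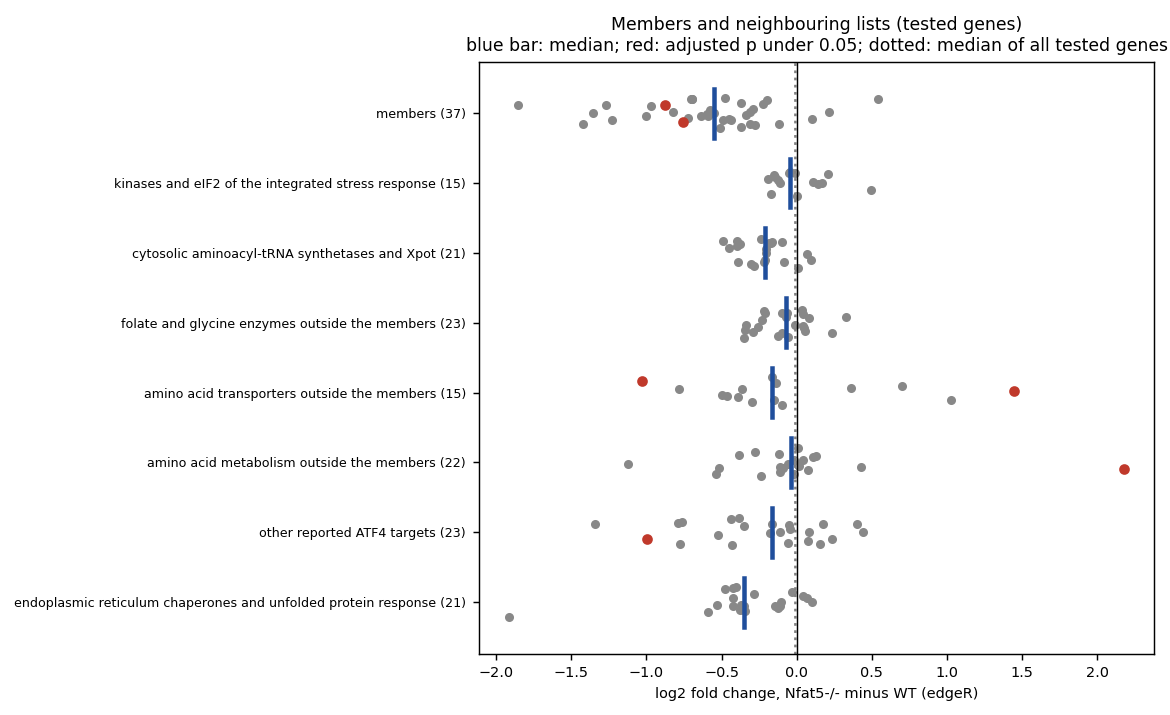
Log2 fold change (Nfat5-/- minus WT, edgeR) of the members and of 7 neighbouring gene lists, 1 point per tested gene, with the number tested in brackets, the median of each list as a blue bar and genes past an adjusted p of 0.05 in red. The medians are -0.55 for the members (-0.50 without the 3 genes that prompted their choice), -0.35 for the endoplasmic reticulum list and -0.21 for the tRNA synthetases.

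The cultures expressed keratinocyte markers at a summed 13555 to 15473 RPKM, with 0 of 10 called. Markers of other cells moved with the labels in places. Of all genes tested, 21.6% were higher in both libraries labelled Nfat5-/-, 25.0% were lower in both and 1.27% passed the threshold. Of 6 smooth muscle markers, 5 were higher in both libraries labelled Nfat5-/- and all 4 tested ones rose, with a sum of 184 and 151 RPKM in WT against 518 and 819 RPKM in the others. Of 10 melanocyte markers, 6 were lower in both, 1 was higher in both and 1, the pigment gene Tyrp1, fell past the threshold, with a sum of 7.89 and 7.52 RPKM against 2.32 and 3.32 RPKM. Of 8 fibroblast markers, 2 were higher and 1 was lower in both, with 0 of 3 tested past the threshold and a sum of 0.633 and 0.540 RPKM against 0.8505 and 1.83 RPKM. The sums stayed at 3.16 RPKM or less for immune and at 0.777 RPKM or less for endothelial markers, with 0 called. The melanocyte gene Gpr143 was the only marker listed at 0 RPKM in all 4 libraries, with 1 intron read in all. Whether these values reflect other cells in the cultures was not tested. Nor was the part of such cells in the levels of the members.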

How the data were processed

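Poly(A) RNA of 4 KC libraries was sequenced with single-end reads. The authors aligned the reads to GRCm38 with CLC Genomics Workbench under default RNA-Seq settings and deposited read counts per gene (whole gene, exons, uniquely placed exon reads, introns) that are not normalized. RPKM values were deposited by the authors too, written with decimal commas. Strand use is not given in the sources used here, so overlapping and antisense genes are uncertain. Where a read matched more than 1 site the software divided it between them, so paralogs are uncertain.

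Groups and replicate numbers were taken from the sample titles. Total gene reads were filtered with filterByExpr (12614 genes left), scaled by TMM (factors 0.980 to 1.01) and tested with edgeR 4.0.16 in R 4.3.3, with a quasi-likelihood fit, genotype as the only term and two-sided p-values adjusted over all genes tested by Benjamini-Hochberg (threshold 0.05). The SE is the log2 fold change divided by the square root of F. With 2 libraries a group, p-values measure the spread between these libraries. Libraries of 1 label differed by more than sampling noise (chi-square per degree of freedom 17.8 and 18.4) and were kept apart. A count of 3 reads corresponds to 0.128 to 0.185 CPM, which covers counting error only. Procedures were tested on simulated counts.

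The members and all lists were chosen with earlier results of these data known. All members are named, and of each neighbouring list the genes past the threshold and its largest rise and fall, of which 1 gene is not reported here. Alternatives were other scaling or filters, at least 10 reads in every library, DESeq2 1.42.0, limma-trend 3.58.1 on log2(RPKM + 1) and log2(RPKM + 0.1) for genes with a group mean of at least 0.5 RPKM, reads in exons, the uniquely placed ones among them, a replicate block and each library left out.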

Additional observations from a re-analysis of the deposited data

How the results depend on the processing

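The median change of the 37 members lay between -0.71 and -0.32 under every alternative run. All gene-wise directions, 34 below and 3 above 0, were kept in number except without the replicate 1 labelled Nfat5-/- (35 and 2). Slc38a1 changed sign there (-0.35) and without WT replicate 1 (-0.19), with a range of -0.35 to 0.85 when 1 library was left out. Ppp1r15a changed sign without WT replicate 1 (0.19), with a range of -0.51 to 0.19. Counts of calls moved more. Members past the threshold numbered 2, but 13 with DESeq2 (3.39% of all genes called), 23 without a filter (6.3%), 4 with library totals only (1.7%) and 4 with uniquely placed reads (1.87%), and 0 to 18 with 1 library left out. Of the neighbouring genes 4 passed, 15 with DESeq2, 32 without a filter (6 up and 26 down) and 0 to 18 with 1 library left out. Of all genes 160 passed, 427 with DESeq2, 1137 without a filter and 16 to 478 with 1 library left out. The cause was not tested. Psph missed the threshold under limma-trend on log2(RPKM + 0.1) (adjusted p = 0.0504), and Slc1a5 passed it under most alternatives. The change of Aldh1l2 was -1.11 on the log2(RPKM + 1) scale and that of Slc7a3 -2.33 without the replicate 1 labelled Nfat5-/-.

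The sample titles number the replicates but do not say whether same-numbered libraries belong together. Their deviations from the group means correlated at -0.0652 over 12614 genes, and a value over all genes does not settle this. Among the 37 tested members, replicate 2 was below replicate 1 in 34 for WT and in 33 for the label Nfat5-/-. With the replicate block 7 members passed (Trib3, Psat1, Psph, Shmt2, Slc6a9, Stc2 and Cth), Pycr1 missed the threshold (adjusted p = 0.0524), and 132 of all genes and 4 neighbouring genes passed.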

Other observations

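Intron reads, which come mostly from unprocessed RNA, were few. The 38 members together had 653 and 680 intron reads in WT, while 545 and 369 were counted in the libraries labelled Nfat5-/-. Scaled to library totals (RPM) these were 40.3 and 31.5 against 23.2 and 19.8. Of the 19 members with at least 40 intron reads over the 4 libraries, 17 had fewer scaled intron reads in the libraries labelled Nfat5-/-, with a median ratio of 0.572, and 18 had intron and exon reads on the same side of 1. Slc7a11 was the exception, with a ratio of 1.24 for introns and 0.643 for exons. Fewer intron reads were also the rule over all genes, in 3943 of 5396 with a median ratio of 0.827. The difference to the members was not tested, and genes with both kinds of reads on the same side of 1 were not counted over all genes.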
